A study of Mus musculus with 28 samples.

Results

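Kidneys of male mice carrying the deacetylated mimetic of aquaporin-3 (male R) were compared with kidneys of male wild type mice (male WT), across every gene with enough counts to test. The 5 male R and 5 male WT libraries were chosen by their labelled sex and genotype, and they make up 10 of the 28 libraries of the series. Female R (3 libraries) and female WT (5 libraries) kidneys are used here to show where the male comparison differs, and all 28 libraries entered the fit that set the filter and the spread. All these mice, of either sex and genotype, were untreated and lived in standard housing with a 12 h light and 12 h dark cycle. Kidneys were taken at 2 to 5 h of zeitgeber time, freed of their capsule and snap frozen, and polyadenylated RNA was sequenced from whole tissue. Ages are not in the labels, nor are the number of founder lines, litters or processing batches, and nothing in the labels says whether each library came from its own animal. What the p-values measure is thus the spread between libraries, part of which may be technical.

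Aquaporin-3 (gene Aqp3) is a water and glycerol channel that principal cells of the collecting duct carry basolaterally. Water enters these cells through aquaporin-2 in the apical membrane under vasopressin, and leaves through aquaporin-3 and aquaporin-4. Acetylation of a lysine removes its positive charge. Replacing a lysine by arginine keeps the charge and prevents acetylation, so that R stands for the deacetylated form and glutamine (Q) for the acetylated one. The comparison asks which transcripts differ when aquaporin-3 cannot be acetylated at that lysine. Gene counts cannot reveal the edited codon, and labelled genotypes were taken as given.

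Total counts were 17608533 to 21283031 per male R library and 16332363 to 21403804 per male WT library, and mitochondrially encoded genes held 9.56 to 11.7% of the counts in male R and 10.2 to 11.5% in male WT. Levels are given as CPM, counts relative to the library total after scaling by TMM. Defining kidney transcripts were read in both groups. Slc34a1, the phosphate transporter of the proximal tubule, was 6050 ± 444 CPM in male R and 6410 ± 192 CPM in male WT (SD, n = 5 each). Umod, the uromodulin of the thick ascending limb, was 2920 ± 308 CPM in male R and 2960 ± 198 CPM in male WT. Nphs1, the nephrin of podocytes, was read at 14.7 ± 0.378 CPM in male R and 16.5 ± 3.15 CPM in male WT. On the first principal component of the 10 libraries, which held 14.7% of the variance, male WT replicate 2 lay at 42.0 and the other 9 between -21.6 and 12.9. Male R replicate 3 lay at 40.9 on the second, which held 14.5%. Among the female WT libraries 4 of 5 had over 10 CPM of Xist, and replicate 2 had less, which by itself goes against its label. Male-biased proximal tubule genes of that library had a median log2 CPM of -4.43 relative to the male WT mean. The other female WT libraries had -4.35 to -4.16 and male WT -0.14 to 0.19. For female-biased ones it had 1.86, against 1.54 to 1.72 and -0.18 to 0.24. Female list values are given with and without replicate 2.

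The edited gene itself was read at similar levels in both genotypes. Aqp3 was at 120, 118, 116, 99.1 and 114 CPM in the male R libraries and at 125, 93.5, 137, 132 and 117 CPM in the male WT libraries. The groups overlapped, the male WT libraries were spread more widely than the male R libraries, and the lowest value belonged to male WT replicate 2. Aqp3 had 1718 to 2507 counts per male R library and 1585 to 2825 per male WT library. The log2 fold change of R over WT was -0.09 (SE 0.101, 95% interval -0.30 to 0.11, edgeR quasi-likelihood adjusted p = 1.0). An exact two-sided permutation test over the 10 libraries, with 252 arrangements, gave p = 0.46, where the smallest p it can give is 0.00794. Leaving out single libraries kept the estimate between -0.17 (without male WT replicate 2) and -0.04 (without male WT replicate 3).

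The other aquaporins were likewise within the spread of the libraries. Aqp2, the vasopressin-regulated apical channel, was 354, 513, 396, 311 and 386 CPM in male R and 282, 517, 408, 404 and 367 CPM in male WT (log2 fold change -0.01, SE 0.244). Aqp4, the second basolateral channel of principal cells, ran from 17.4 to 55.5 CPM in male R and from 21 to 54.4 CPM in male WT (log2 fold change -0.03, SE 0.268). Both were spread more widely between libraries of the same genotype than Aqp3 was. Aqp1, which passes water in the proximal tubule and descending thin limb, was 1060 ± 77.4 CPM in male R and 1090 ± 88.4 CPM in male WT (SD, n = 5 each). Aqp7, a glycerol channel of the proximal tubule, was 16.8 to 17.8 CPM in male R and 16.5 to 22.1 CPM in male WT, and all 5 male R values lay below the male WT mean of 19.6 CPM (log2 fold change -0.18, SE 0.109). Aqp6, an intracellular channel of intercalated cells, was 43.3 to 55.4 CPM in male R and 46.2 to 93.6 CPM in male WT, where replicate 2 held the highest value. Its log2 fold change of -0.26 (SE 0.205) became -0.05 without that library. Aqp11, an intracellular aquaporin, had a fitted log2 fold change of 0.04 (SE 0.0932). The 2 least expressed tested members, Aqp5 and Aqp8, had fitted log2 fold changes of 0.84 (SE 0.602) and -0.45 (SE 0.359), with Aqp5 resting on 41 counts over the male R libraries and 22 over the male WT libraries. Of the 11 aquaporins, 9 were tested and 0 passed, with 2 estimates above 0 and 7 below and a median log2 fold change of -0.03. Aqp9 had 6 counts in male R and 11 in male WT and Aqp12 had none, and both fell under the filter.

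**Figure D1:**
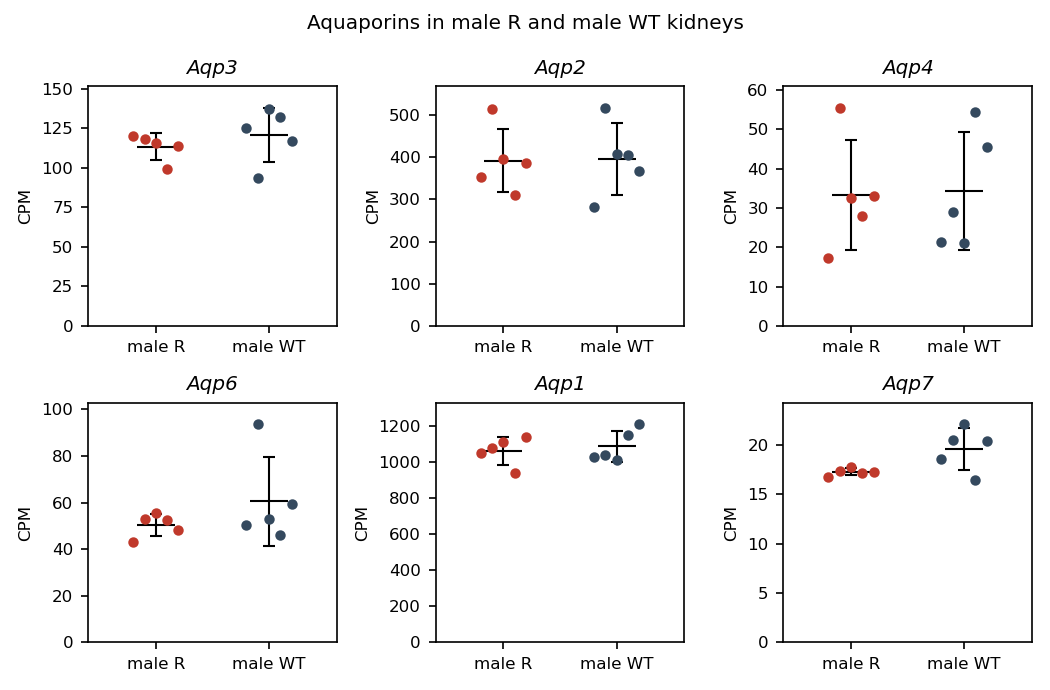
Levels in CPM (vertical axis from 0) of 6 aquaporins in the 5 male R libraries (red, left) and the 5 male WT libraries (dark, right), each point a library, with the mean (dash) and SD (bars). The groups overlap in every panel, and male WT replicate 2 stands alone at 93.6 CPM in the Aqp6 panel.

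Over all genes, 0 of 17573 tested genes (0.0%) passed an adjusted p under 0.05 in male R against male WT by edgeR, and 0 passed by DESeq2 (0.0%) or by limma voom. The smallest unadjusted p was 0.000404, and its adjusted value was 1.0. At an unadjusted p under 0.05 there were 375 genes (2.13%), 179 of them higher in male R (1.02%) and 196 lower (1.12%), against 879 that the threshold alone would give. By DESeq2 the count was 414, and with the 10 male libraries fitted alone it was 540. Without male Q replicate 4 and female Q replicate 5, which had 7.74% and 3.94% of counts in mitochondrially encoded genes, it was 829. By limma voom with quality weights it was 1111. Whether the count falls below 879 thus depends on the fit. Estimates were split evenly, with 8655 genes above 0 (49.3%) and 8915 below (50.7%). All 5 male R libraries lay above all 5 male WT libraries for 39 genes (0.222%) and below them for 53 genes (0.302%).

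The estimates bound the differences that could have gone unseen. The median absolute log2 fold change was 0.103, and 95% of genes were within 0.596. The 95% interval of the fold change stayed within 2-fold in either direction for 14203 genes (80.8%) and within 1.5-fold for 10987 genes (62.5%). Precision followed the level of expression. Among the 1906 genes at 100 CPM or more, 99.5% had an interval within 2-fold and 93.0% within 1.5-fold. Among the 3371 genes under 1 CPM, 16.6% had an interval within 2-fold. Of the 216 genes with an estimate beyond 2-fold, 203 were under 1 CPM. For most genes under 1 CPM the fit to all 28 libraries did not bound the difference within 2-fold. Its spread includes male Q replicate 4 and female Q replicate 5, and interval widths without them were not examined.

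**Figure D2:**
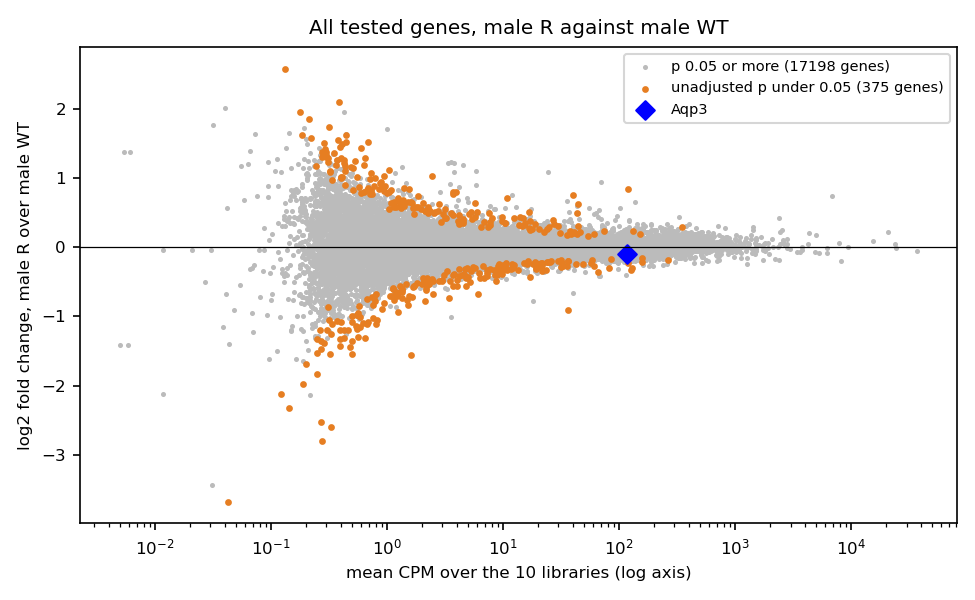
Log2 fold change of male R over male WT (vertical axis) against the mean CPM over the 10 libraries (horizontal, log axis) for the 17573 tested genes, with the 375 genes at an unadjusted p under 0.05 in orange and Aqp3 as a blue diamond. The cloud narrows with rising CPM, is centred on 0, and holds genes beyond 2-fold almost only under 1 CPM.

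The genes named here are the 12 with the smallest unadjusted p in each direction among genes of at least 1 CPM whose direction held when each library was left out. None passed the adjusted test, where each had an edgeR adjusted p of 1.0, and they were picked for small p, so their estimates are a description. Fold changes ran from 1.17 to 2.16 for those higher in male R and from 0.521 to 0.854 for those lower. In 2 of the first 12 and in 5 of the second 12 the R and WT libraries did not overlap. Over all genes the shares were 0.222% with R above and 0.302% with R below, and picking for small p favours such genes.

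The 2 genes above all male WT libraries differed by less than 1.5-fold. Rab40c, a small GTPase that joins a ubiquitin ligase complex, was 14.6, 15.5, 16.5, 14.8 and 15.5 CPM in male R and 12.4, 11.9, 12.2, 13.4 and 11.7 CPM in male WT (log2 fold change 0.32, SE 0.114). Sec14l2, a lipid-binding protein, was 3.04, 2.69, 2.50, 2.48 and 2.47 CPM in male R and 2.26, 1.95, 1.98, 1.57 and 1.53 CPM in male WT (log2 fold change 0.50, SE 0.18). The smallest p of this group belonged to Zbtb3, a zinc finger protein, with a log2 fold change of 0.85 (SE 0.258) at 1.80 ± 0.63 CPM in male R and 0.991 ± 0.282 CPM in male WT (SD, n = 5 each). Its groups overlapped. Cxcl1, a chemokine that draws neutrophils, had the widest fold change, 0.912, 1.41, 1.48, 2.25 and 1.13 CPM in male R and 0.603, 0.59, 0.726, 0.131 and 1.23 CPM in male WT (log2 fold change 1.11, SE 0.397). It was low in both groups, and its smallest value, in male WT replicate 4, widened the estimate, which was 0.87 without that library. Samd4, an RNA-binding repressor of translation, had an estimate of 0.77 (SE 0.252), and leaving out male R replicate 2 gave 0.44. Slc1a5, a glutamine transporter, was 49.5 ± 3.77 CPM in male R and 42.4 ± 4.85 CPM in male WT. Mustn1, a small protein of the musculoskeletal system, had a fitted log2 fold change of 0.74 (SE 0.252), and Bbof1, a basal body protein of ciliated cells, one of 0.56 (SE 0.2). For Pcolce2, an enhancer of procollagen processing, it was 0.52 (SE 0.188), and for Chst8, a sulfotransferase acting on N-acetylgalactosamine, 0.48 (SE 0.169). Fam169b had 0.43 (SE 0.144) and Raph1, the actin regulator lamellipodin, 0.35 (SE 0.117).

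The genes below all male WT libraries were of several kinds. Tmc8, a transmembrane channel-like protein, was 0.426, 1.04, 0.917, 1.04 and 0.86 CPM in male R and 1.76, 1.36, 2.18, 1.24 and 1.70 CPM in male WT (log2 fold change -0.94, SE 0.29). Cand2, an exchange factor of cullin ubiquitin ligases, was 2.55 to 3.49 CPM in male R and 3.72 to 5.86 CPM in male WT (log2 fold change -0.55, SE 0.177). Smpd4, a neutral sphingomyelinase, was 20.7, 19.7, 17.1, 20.5 and 19.8 CPM in male R and 23.2, 23.2, 22.1, 21.8 and 24.2 CPM in male WT (log2 fold change -0.23, SE 0.0791). The other members of this set serve cell division. Aurka, a kinase of the mitotic spindle, was 0.634 to 1.58 CPM in male R and 1.6 to 2.23 CPM in male WT (log2 fold change -0.71, SE 0.251). Gins3, a subunit of the replicative helicase, was 1.24 to 2.19 CPM in male R and 2.42 to 2.95 CPM in male WT (log2 fold change -0.54, SE 0.195). Overlapping groups were seen for the rest. Sv2a, a synaptic vesicle glycoprotein, had the smallest p of the 12 genes picked here as lower in R. It was 21.6, 22.4, 20.9, 19.5 and 20.5 CPM in male R and 26.7, 28, 26.2, 28.8 and 21.5 CPM in male WT. In male WT replicate 5 alone reached into the range of male R (log2 fold change -0.32, SE 0.0955). Slc8a1, the sodium-calcium exchanger of the distal tubule, was 61.6 to 81.9 CPM in male R and 76.0 to 106 CPM in male WT (log2 fold change -0.30, SE 0.111). Log2 fold changes were -0.56 (SE 0.171) for Rassf9, a Ras association domain protein, and -0.68 (SE 0.229) for Dgkg, a diacylglycerol kinase. They were -0.76 (SE 0.28) for Ppp1r3d, which targets protein phosphatase 1 to glycogen, and -0.31 (SE 0.113) for Zfp644, a zinc finger protein. Ankrd26, an ankyrin repeat protein of the centriole, had -0.37 (SE 0.131).

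**Figure D3:**
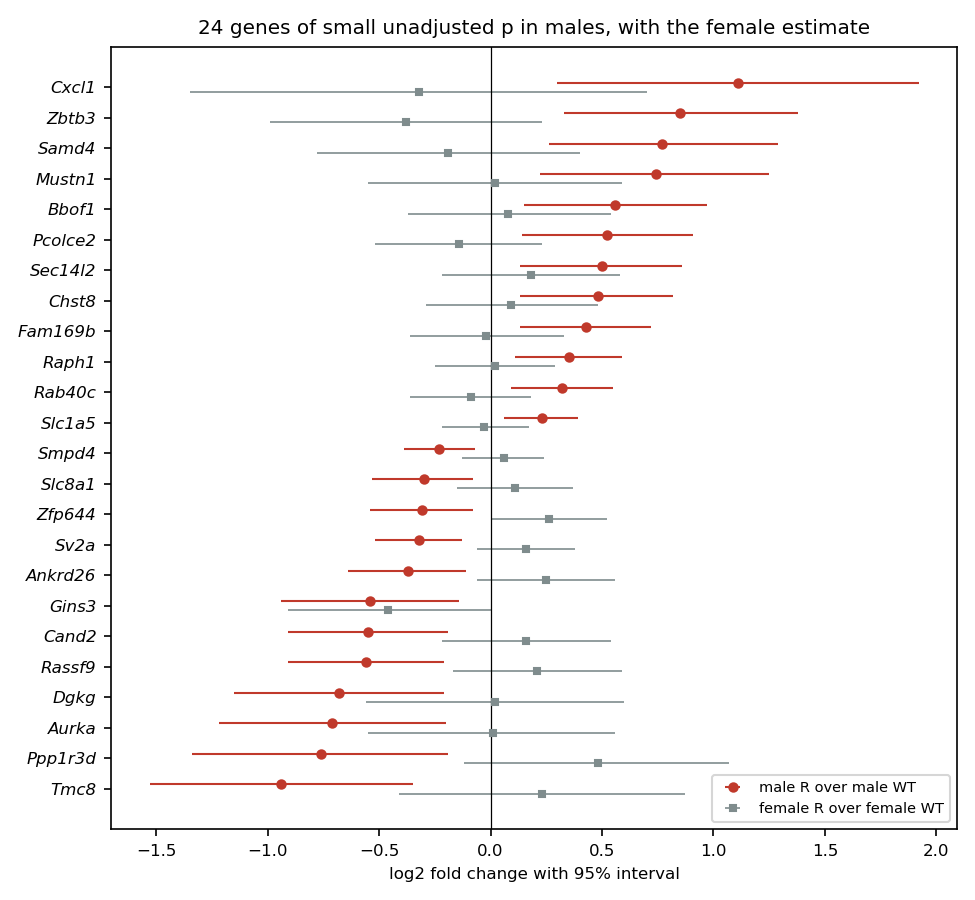
Log2 fold changes of R over WT with 95% intervals (horizontal axis) for the 24 named genes, in males (red circles, n = 5 and 5) and below them in females (grey squares, n = 3 and 5). The male estimates clear 0 because the genes were picked for it, while the female estimate is above 0 for 5 of the 12 genes higher in male R and for 11 of the 12 genes lower in male R.

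The genes were picked on the male contrast, and the female libraries entered the picking through the filter, the scaling and the shared spread of the fit. Of the 12 genes higher in male R, 5 had a female estimate above 0 and 7 below, between -0.38 for Zbtb3 and 0.18 for Sec14l2. Of the 12 lower in male R, 1 had a female estimate below 0, Gins3 with -0.46 (SE 0.224), and 11 had one above 0. Across all 17573 genes, the sign of R over WT was the same in both sexes for 6883 (39.2%), and Pearson's r between the male and the female estimates was -0.104 across genes, which are not independent replicates. Of the 375 genes at an unadjusted p under 0.05 in males, 151 (40.3%) had the same sign in females. Leaving out single libraries kept the share over all genes between 37.3% (without male WT replicate 2) and 43.6% (without male R replicate 3). In females 8573 estimates were above 0 (48.8%) and 0 genes passed by edgeR (0.0%), with 338 at an unadjusted p under 0.05 (1.92%) and 0 passing by DESeq2. The difference between the sexes, tested as an interaction, passed for 0 genes by edgeR (0.0%), with 495 at an unadjusted p under 0.05 (2.82%) and a smallest adjusted p of 0.992. DESeq2 called 0 in that test.

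Groups of genes were read by the number of members with an estimate above or below 0 and by their median log2 fold change, where all tested genes had 49.3% above 0 and a median of 0.00. The level of a list in a library is the median over its members of log2 CPM minus the male WT mean. No member of any list passed over all genes by edgeR. In whole kidney RNA, fewer cells of a type and less RNA per cell cannot be told apart.

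Immediate early genes, transcription factors and regulators that growth factors and stress induce rapidly, had the second widest median of the 34 lists after adipocyte genes. Of 22 tested members 18 were above 0 in male R and 4 below, with a median log2 fold change of 0.52, and 3 had an unadjusted p under 0.05, all higher, against 1.02% of all genes. Promoter sequence is shown for 3 members of the list with estimates above 0, of which Dusp1 had no unadjusted p under 0.05. Zfp36 and Dusp1 carry different short motifs, while most promoters of the list carry neither. Each run is the 250 bases before the RefSeq start site on GRCm38.p6 (the counts are on GRCm39), 5′ to 3′ on the gene's strand, with motif matches in capitals. Zfp36 is at chr7:28379229-28379478 (minus strand), Dusp1 at chr17:26508473-26508722 (minus strand) and Egr2 at chr10:67535249-67535498 (plus strand). Dusp1 was chosen after its values were seen.
Zfp36: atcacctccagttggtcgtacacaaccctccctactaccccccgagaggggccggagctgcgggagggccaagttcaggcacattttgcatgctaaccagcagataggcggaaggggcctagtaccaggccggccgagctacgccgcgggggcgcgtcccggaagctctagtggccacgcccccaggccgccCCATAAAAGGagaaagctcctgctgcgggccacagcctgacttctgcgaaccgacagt
Dusp1: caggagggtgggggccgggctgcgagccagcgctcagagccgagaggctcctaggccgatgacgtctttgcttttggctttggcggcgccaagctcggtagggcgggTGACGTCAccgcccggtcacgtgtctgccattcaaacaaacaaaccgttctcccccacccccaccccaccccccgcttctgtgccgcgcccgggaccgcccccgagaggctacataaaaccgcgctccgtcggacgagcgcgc
Egr2: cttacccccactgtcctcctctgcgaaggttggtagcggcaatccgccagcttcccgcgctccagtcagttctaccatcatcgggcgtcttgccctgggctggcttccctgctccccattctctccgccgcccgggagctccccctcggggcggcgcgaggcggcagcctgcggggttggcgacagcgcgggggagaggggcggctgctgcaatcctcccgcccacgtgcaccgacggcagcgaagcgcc

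Capitals in Zfp36 mark a match to the CArG box, the site of serum response factor, starting 58 bases before the start, and capitals in Dusp1 mark a match to TGACGTCA, the cyclic AMP response element, starting 143 bases before the start. Both strands were searched, the motifs did not overlap, and Egr2 held neither in this window. Of 19 immediate early promoters in the RefSeq table, 1 held the CArG box and 2 the cyclic AMP response element, which 1.40% and 1.62% of 27025 promoters of that length hold. A match is a string of letters and not a shown site of binding.

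Zfp36 (tristetraprolin), which binds and destabilises cytokine messages, was 34.8, 51.6, 63.3, 61.2 and 55.7 CPM in male R and 50.9, 31.7, 29.7, 30.3 and 30.1 CPM in male WT. In male R replicate 1 was the low library and in male WT replicate 1 the high one, and the other libraries of the groups did not overlap. Its log2 fold change was 0.63 (SE 0.298). Junb, a subunit of the AP-1 transcription factor, was 29.1, 56.7, 60.5, 57.0 and 55.7 CPM in male R and 49.4, 30.4, 29.4, 26.3 and 35.7 CPM in male WT (log2 fold change 0.60, SE 0.322). The same libraries were the exceptions. Ier2, a nuclear regulator, was 16.4, 17.7, 30.6, 17.9 and 15.3 CPM in male R and 17.5, 13.9, 12.3, 13.3 and 11.8 CPM in male WT, and its log2 fold change of 0.51 (SE 0.247) was 0.30 without male R replicate 3. Egr2, a zinc finger transcription factor, rested on few counts, 6, 57, 17, 13 and 8 in male R and 13, 10, 3, 5 and 1 in male WT. Its log2 fold change of 1.53 (SE 0.599) was 0.76 without male R replicate 2, which held most of the counts. Egr1, another zinc finger factor of this class, was 13.9, 50.2, 45.6, 33.4 and 22.8 CPM in male R and 34.8, 8.44, 9.83, 11.8 and 13.3 CPM in male WT. Dusp1, a phosphatase that shuts off MAP kinases, was 70.2, 133, 130, 120 and 160 CPM in male R and 102, 86.2, 60.6, 71.3 and 92.1 CPM in male WT (log2 fold change 0.57, SE 0.41). Egr1 and Jun, a partner of Junb in AP-1 that the plot of immediate early genes shows, were chosen after their values were seen.

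Single libraries had much weight within this list. Male WT replicate 1 held the highest male WT value for 12 of 22 members. The list level was 0.08, 0.53, 0.75, 0.38 and 0.44 in male R and 0.35, 0.18, -0.27, -0.18 and -0.06 in male WT, so that male R replicate 1 lay below 2 male WT libraries. The median log2 fold change stayed between 0.43 (without male WT replicate 3) and 0.62 (without male WT replicate 1) when libraries were left out. In females 2 of 22 members were above 0 and 20 below, with a median of -0.21, or -0.19 with 3 above 0 without female WT replicate 2. At an unadjusted p under 0.05 the interaction with sex held 2 of 22 members, Egr2 and Ier2, against 2.82% of all genes.

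**Figure D4:**
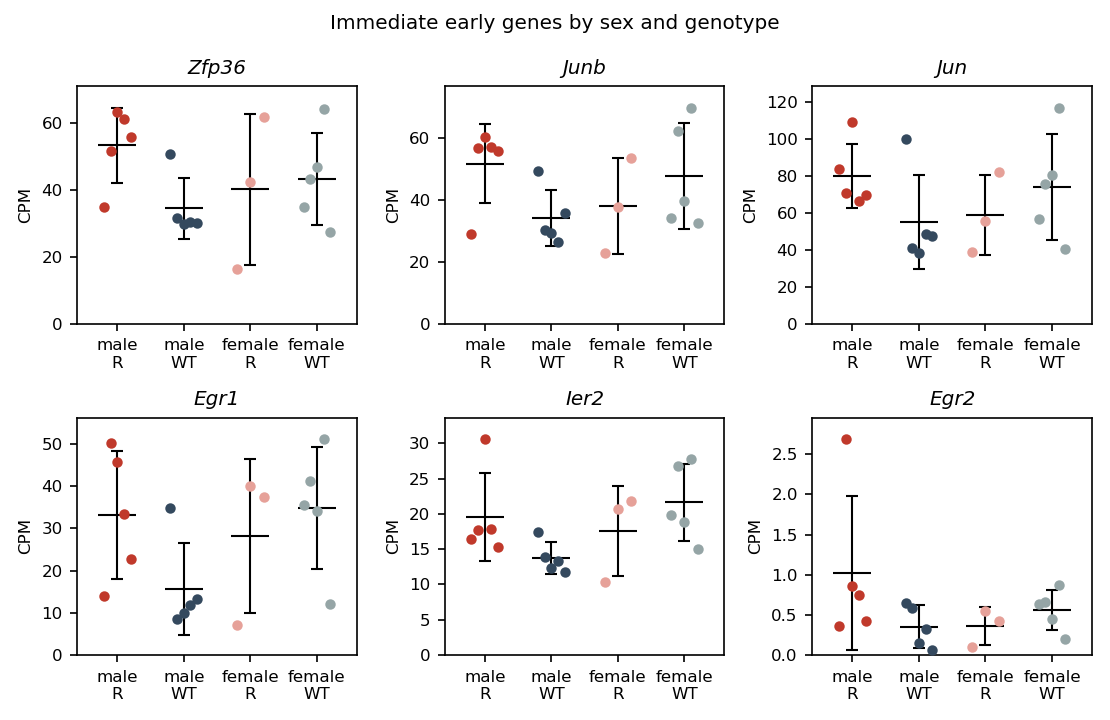
CPM (vertical axis from 0) of 6 immediate early genes in male R, male WT, female R and female WT libraries, each point a library, with mean (dash) and SD (bars). For Zfp36 and Junb 4 of 5 male R libraries lie above all male WT libraries, and the single high male WT library in the Zfp36, Junb, Jun and Egr1 panels is replicate 1, while female R and female WT overlap in all panels.

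Genes of stress responses leaned the same way but with more overlap. Heat shock genes, the chaperones of misfolded protein, were above 0 for 11 of 12 members with a median of 0.22 and 0 members at an unadjusted p under 0.05. Hspa8, the constitutive chaperone of the Hsp70 family, was 1950, 2860, 2530, 3280 and 2350 CPM in male R and 1950, 3190, 1480, 1720 and 2810 CPM in male WT. Male WT replicate 2 held the highest male WT value for all 12 members, and the list median was 0.39 without it and 0.10 without male WT replicate 3. Genes of the unfolded protein response, which relieves the endoplasmic reticulum, were above 0 for 11 of 13 members with a median of 0.16, or 0.31 without male WT replicate 2. Their chaperone Hspa5 was 897 ± 127 CPM in male R and 738 ± 264 CPM in male WT (SD, n = 5 each). In females 2 of 12 heat shock genes and 0 of 13 genes of the unfolded protein response were above 0, with medians of -0.13 and -0.18 (-0.15 and -0.22 without female WT replicate 2).

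Interferon response genes were above 0 for 12 of 16 members with a median of 0.14. Of them 1 had an unadjusted p under 0.05, higher in R, against 1.02% of all genes. That was Oas2, a sensor of double-stranded RNA, at 2.31, 3.11, 1.07, 2.31 and 1.08 CPM in male R and 1.11, 1.24, 1.21, 1.31 and 0.646 CPM in male WT (log2 fold change 0.84, SE 0.356). Male R replicates 3 and 5 lay within the male WT range. In females the median of the list was -0.24, and 0.00 without female WT replicate 2, whose list level of 1.51 compares with 0.16 to 0.66 in the other female WT libraries. Genes of tubule injury were above 0 for 10 of 14 members with a median of 0.14, which was 0.06 without male R replicate 5, 0.07 without male WT replicate 1 and 0.33 without male WT replicate 2. In females 5 of 14 were above 0 with a median of -0.09, or 4 of 14 with the same median without female WT replicate 2. Lcn2, a marker of tubule damage, was 3.10, 3.91, 2.90, 4.04 and 3.12 CPM in male R and 1.56, 4.25, 1.94, 1.96 and 1.41 CPM in male WT (log2 fold change 0.62, SE 0.299). Every male R library exceeded every male WT library except replicate 2, and without that library the log2 fold change was 0.99. Havcr1, the injury marker Kim-1, was 2.80 ± 1.33 CPM in male R and 2.0 ± 0.599 CPM in male WT, with a log2 fold change of 0.16 without male R replicate 3.

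**Figure D5:**
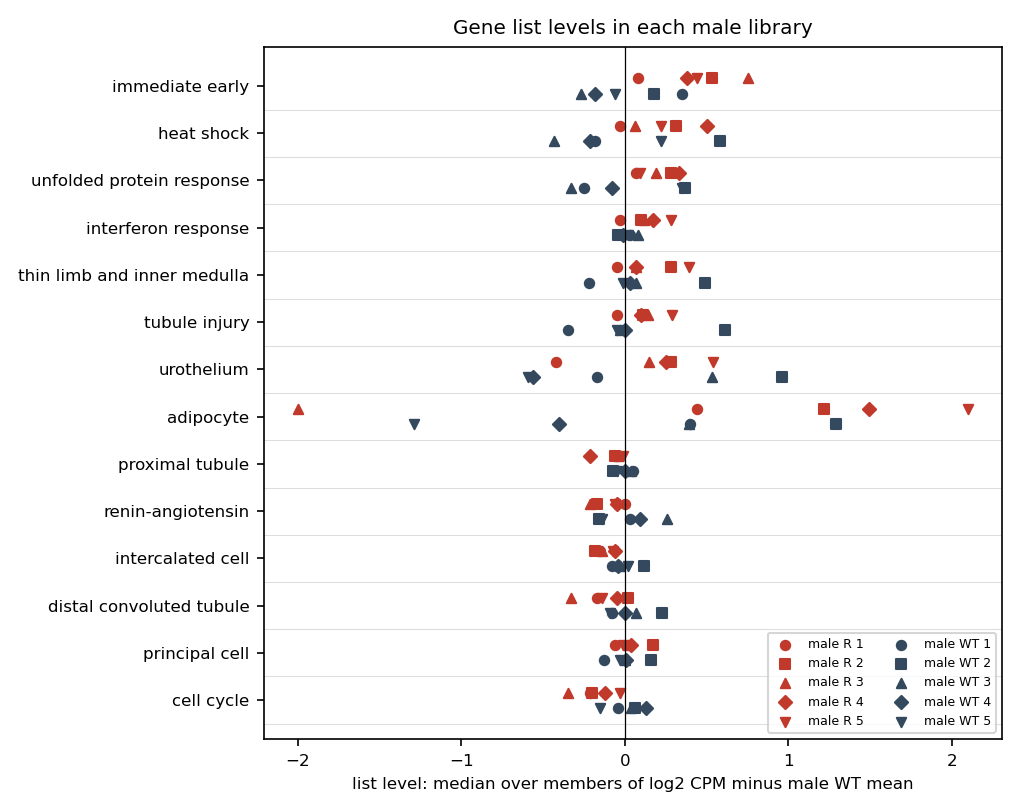
Level of 14 gene lists in each library (horizontal axis, median over the members of log2 CPM minus the male WT mean), with male R in red above male WT in dark for each list and the marker shape giving the replicate number. Male R and male WT overlap in these lists, and adipocyte genes span the widest range. Male WT replicate 2 (square) is the highest male WT library in heat shock, thin limb, tubule injury, urothelium and adipocyte genes. The same holds in intercalated cell, distal convoluted tubule and principal cell genes.

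Along the nephron, lists that leaned below 0 included those of the distal tubule, the intercalated cells, the proximal tubule and the podocytes. Distal convoluted tubule genes, which serve the uptake of sodium chloride, calcium and magnesium, were below 0 for 13 of 14 members with a median of -0.11. Of them 1 had an unadjusted p under 0.05, lower in R, against 1.12% of all genes. That was Slc8a1, given above among the genes picked for small p. Trpv5, the apical calcium channel of this segment, was 9.97, 11.1, 9.12, 11.1 and 10.7 CPM in male R and 12.7, 12.8, 14.5, 14.4 and 13 CPM in male WT. All male R libraries lay below all male WT libraries, with a log2 fold change of -0.37 (SE 0.188) that held between -0.40 and -0.32 as libraries were left out. Slc12a3, the thiazide-sensitive cotransporter, was 588, 857, 579, 678 and 561 CPM in male R and 743, 893, 698, 666 and 760 CPM in male WT, and the groups overlapped. Calb1, the calcium buffer calbindin, was 405 ± 36.4 CPM in male R and 474 ± 113 CPM in male WT, and its log2 fold change of -0.23 (SE 0.148) became -0.08 without male WT replicate 2. Without that library the list had 6 members above 0 and a median of -0.03. In females Trpv5 was 17.8, 19.8 and 21.1 CPM in R and 15.7, 20.1, 15.4, 14.5 and 16.5 CPM in WT, and the list had 10 of 14 members above 0 (12 without female WT replicate 2).

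Intercalated cell genes, which move acid and base in the collecting duct, were below 0 for 14 of 18 members with a median of -0.15, or -0.09 without male WT replicate 2, and 3 had an unadjusted p under 0.05, all lower, against 1.12% of all genes. Slc26a4, the chloride-bicarbonate exchanger pendrin of type B cells, was 54.6, 55.3, 53.5, 52.5 and 58.5 CPM in male R and 60.6, 62.6, 61.0, 67.7 and 59.4 CPM in male WT. The libraries did not overlap, and the log2 fold change was -0.18 (SE 0.0891). In females the groups overlapped and R had the higher mean, with 88.3, 93.5 and 79.4 CPM in R and 62.8, 77.9, 93.4, 77.8 and 75.8 CPM in WT. Slc26a7, another anion exchanger, was 1.12 to 2.19 CPM in male R and 1.53 to 3.68 CPM in male WT (log2 fold change -0.60, SE 0.28). Kit, a receptor tyrosine kinase, was 8.45 to 11.6 CPM in male R and 11 to 15.4 CPM in male WT (log2 fold change -0.32, SE 0.151). Oxgr1, a receptor for oxoglutarate, was 17.2 to 24 CPM in male R and 22.7 to 27 CPM in male WT, with 1 male R library above the lowest male WT library. Not every member leaned that way, and Car2, carbonic anhydrase 2, was 350 ± 37.9 CPM in male R and 347 ± 21.6 CPM in male WT (log2 fold change 0.01, SE 0.11). In females 8 of 18 members were above 0, or 14 without female WT replicate 2.

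Principal cell genes, the cells that carry aquaporin-3, were split, with 6 of 14 above 0 and a median of -0.01. Fxyd4, a regulator of the sodium pump, was 45.8, 49.8, 55.7, 50.7 and 49.7 CPM in male R and 38.4, 44.2, 41.9, 44.6 and 39.3 CPM in male WT, with all male R libraries above all male WT libraries and a log2 fold change of 0.27 (SE 0.152). Scnn1g, the gamma subunit of the epithelial sodium channel, was 20.7 to 33.1 CPM in male R and 27.6 to 34.3 CPM in male WT (log2 fold change -0.22, SE 0.133). Elf5, a transcription factor of these cells, was 2.19, 7.54, 2.65, 5.54 and 4.46 CPM in male R and 2.56, 6.43, 3.34, 2.55 and 2.47 CPM in male WT. It varied over 3-fold within male R, and its log2 fold change of 0.37 (SE 0.336) compares with -1.29 (SE 0.398) in females. The vasopressin receptor gene Avpr2 had 8 counts in each male group and was not tested. Genes of vasopressin signalling and aquaporin-2 traffic had a median of -0.03, those of the response to aldosterone and glucocorticoids 0.00, those of osmolytes and tonicity 0.01 and those of the thick ascending limb -0.01.

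Thin limb and inner medulla genes, of the zone where urine is concentrated, were above 0 for 9 of 13 members with a median of 0.24, which leaving out male WT replicate 2 or male R replicate 2 moved to 0.47 and 0.10. Cldn4, a tight junction claudin of the collecting duct, was 22.9, 44.6, 27.4, 28.1 and 29.9 CPM in male R and 21.2, 32.0, 24.4, 18.4 and 20.4 CPM in male WT (log2 fold change 0.40, SE 0.167). Replicate 2 was the highest library of each group. Akr1b3, aldose reductase, a source of the osmolyte sorbitol, was 106, 131, 106, 174 and 175 CPM in male R and 77.4, 158, 121, 103 and 66.7 CPM in male WT (log2 fold change 0.40, SE 0.376). Libraries of the same genotype differed by more than the groups did. In females the list leaned below 0 for 9 of 13 members with a median of -0.39 (-0.36 without female WT replicate 2), and Cldn4 was 28.1 ± 4.95 CPM in female R (SD, n = 3) and 37.0 ± 3.26 CPM in female WT (n = 5). The interaction with sex had an unadjusted p under 0.05 for 6 of 13 members, against 2.82% of all genes. Among them, Proser2 had a fitted log2 fold change of 0.31 (SE 0.231) in males and -0.81 (SE 0.27) in females, with an interaction edgeR adjusted p of 0.992. Urothelial genes, which line the renal pelvis, had a median of 0.15 with 8 of 10 above 0 in males and of -0.47 with 1 of 10 above 0 in females (-0.61 with 0 of 10 above 0 without female WT replicate 2). The male median turned on single libraries, at -0.02 with 4 of 10 above 0 without male WT replicate 5, 0.02 without male R replicate 5, 0.00 when male WT replicate 4 was left out and 0.40 when it was male WT replicate 2, which was the highest male WT library for all 10. Their part in the thin limb values was not tested.

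Proximal tubule genes were below 0 for 15 of 20 members with a median of -0.08. Lrp2, the endocytic receptor megalin, was 1170 ± 187 CPM in male R and 1380 ± 125 CPM in male WT (SD, n = 5 each) (log2 fold change -0.24, SE 0.141). Slc5a2, the glucose cotransporter SGLT2, was 526 ± 59.2 CPM in male R and 597 ± 47.6 CPM in male WT (log2 fold change -0.18, SE 0.104). Pck1, the gluconeogenic carboxykinase, was among the 5 members above 0, at 2970, 2430, 1730, 3440 and 3170 CPM in male R and 2630, 1660, 2610, 1600 and 1740 CPM in male WT. Its log2 fold change was 0.42 (SE 0.24) in males and 0.35 in females. Male-biased proximal tubule genes had a median of 0.03 and female-biased ones of -0.05, and podocyte genes were below 0 for 11 of 12 members with a median of -0.09 (-0.05 without male R replicate 1). Renin-angiotensin genes were below 0 for 9 of 9 tested members with a median of -0.11 (-0.06 without male WT replicate 3) and a lowest estimate of -0.54 for Mas1, a receptor for angiotensin fragments. Ace, the converting enzyme, was 238 ± 28.4 CPM in male R and 262 ± 23.4 CPM in male WT, and Enpep, an aminopeptidase that trims angiotensin, 115 ± 9.44 CPM in male R and 132 ± 22.1 CPM in male WT. In females 7 of these 9 genes were above 0, or 6 without female WT replicate 2.

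Genes of cell division were below 0 for 9 of 12 members with a median of -0.17, and 2 had an unadjusted p under 0.05, both lower, against 1.12% of all genes. The median was -0.10 without male R replicate 3, and likewise without male WT replicate 2 or male WT replicate 4. Bub1, a kinase of the spindle checkpoint, had the smallest p of all genes and rested on 2, 2, 1, 1 and 1 counts in male R and 9, 10, 5, 9 and 8 counts in male WT. Every male R library held fewer counts than every male WT library, 7 against 41 in sum. Its log2 fold change was -2.52 (SE 0.634, edgeR adjusted p = 1.0), between -2.71 and -2.41 as libraries were left out, and -0.15 in females. Ccnb1, the mitotic cyclin B1, was 0.608, 0.566, 0.255, 0.692 and 0.806 CPM in male R and 1.41, 0.885, 1.16, 0.85 and 0.646 CPM in male WT, with a log2 fold change of -0.77 (SE 0.326). Other members differed less. Mcm2, a subunit of the replicative helicase, was 12.4 ± 1.37 CPM in male R and 14 ± 2.71 CPM in male WT, and Mcm5, of the same helicase, 4.87 ± 0.698 CPM in male R and 5.48 ± 0.789 CPM in male WT. In females 1 of 12 members was above 0, with a median of -0.15 (-0.09 without female WT replicate 2).

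Markers of other tissues were uneven between libraries. Adipocyte genes had the widest median of the lists, 0.79, with 10 of 11 tested members above 0. Plin1, which coats lipid droplets, was 2.07, 4.85, 0.407, 6.69 and 17.4 CPM in male R and 2.56, 7.20, 2.13, 1.05 and 0.764 CPM in male WT. The lowest and the highest library were both male R, and the list level ran from -2.0 in replicate 3 to 2.10 in replicate 5 of male R and from -1.29 to 1.29 in male WT. Leaving out male R replicate 5 brought the median to 0.36, and leaving out male WT replicate 2 brought it to 1.19. Plin4, another lipid droplet protein, had a fitted log2 fold change of 0.79 (SE 0.331) and an unadjusted p under 0.05, and in females the list median was -0.77 (-1.04 without female WT replicate 2). The part of fat tissue in the values of other lists was not tested. Endothelial genes had a median of 0.00, those of stroma and pericytes 0.05, of macrophages and myeloid cells 0.10 and of lymphocytes -0.07. Blood genes had a median of 0.20, which was -0.23 without male R replicate 4, and the adrenal list had 1 tested gene, Star, at -0.05.

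Lists close to the edited protein, those of glycerol handling and of lysine acetylation, gave no call. Glycerol metabolism genes had a median of 0.03 with 9 of 15 above 0. Agpat2, an acyltransferase that builds phosphatidic acid, was 37.1, 35.8, 37.1, 35.9 and 43.6 CPM in male R and 32.0, 34.0, 33.2, 32.2 and 30.8 CPM in male WT, above every male WT library, with a log2 fold change of 0.22 (SE 0.122). Gpd2, the mitochondrial glycerol phosphate dehydrogenase, had -0.21 (SE 0.139). Enzymes that write and erase lysine acetylation had a median of -0.03 with 10 of 28 above 0, and the deacetylase Hdac5 was 81.6 ± 5.71 CPM in male R and 87.4 ± 7.18 CPM in male WT (SD, n = 5 each). Fatty acid oxidation genes had 17 of 21 above 0 with a median of 0.06, mitochondrially encoded genes a median of 0.07 and clock genes one of -0.02. Urea and arginine genes had a median of -0.05. At an unadjusted p under 0.05 they held 1 member, lower in R, against 1.12% of all genes. That was Slc7a2, a transporter of cationic amino acids, at 3.95, 4.43, 4.74, 4.67 and 3.60 CPM in male R and 5.98, 6.55, 5.57, 6.34 and 5.99 CPM in male WT. Its libraries did not overlap, and its log2 fold change was -0.51 (SE 0.21) in males and 0.24 in females. Of the 95 tested genes within 5 Mb of Aqp3 on chromosome 4, 4 had an unadjusted p under 0.05 (4.21%, against 2.13% of all genes), their median log2 fold change was 0.03, and 0 passed by edgeR.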

How the data were processed

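Polyadenylated RNA of whole mouse kidney was measured in 28 libraries. The values were raw counts per gene that the authors deposited, unscaled, and per the file headers featureCounts (Subread 2.0.1) had summed fragments over Ensembl genes of GRCm39 without regard to strand, so that reads of a gene and of an antisense partner cannot be told apart. The submitters' processing notes add SAMtools 1.6, Trim Galore 0.6.7 and DESeq2 1.38.3. Which aligner was used is not given in the sources used here. Symbols were matched by identifier for 52073 of 56748 genes, and genes without one held 0.669% of counts.

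Samples were grouped by labelled sex and genotype. In R 4.3.3 with edgeR 4.0.16, filterByExpr on the 6 groups left 17573 genes, with 99.91% of counts, TMM scaled the libraries, and a model with 6 group means was fitted to all 28 libraries (22 residual degrees of freedom). The robust quasi-likelihood test, two-sided, was adjusted by Benjamini-Hochberg over all tested genes, at a threshold of 0.05. SE is the absolute log2 fold change over the square root of F, and 95% intervals rest on it. Scripts were tested on simulated data. The male R and male WT groups, the genes near Aqp3 and 34 gene lists were chosen with earlier results of these data known, and no test over a list is given. The named genes were all tested aquaporins, the 12 of smallest unadjusted p in each direction (at least 1 CPM, no predicted genes, direction kept in each fit without 1 library), and of each list up to 4 members of smallest p and, for cell types, that of highest CPM. A gene of the thin limb list is not reported here. Where another gene is named, the text says that it was chosen after its values were seen. Alternatives were DESeq2 1.42.0 as a test and for size factors, limma 3.58.1 voom with quality weights, no filter, other sets of libraries, a replicate block, and each library left out.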

Additional observations from a re-analysis of the deposited data

Results flagged for a closer look

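Of 224 sets of 5 libraries examined (a named gene or list in male R or in male WT), 22 (9.82%) held a library far from the other 4 by Dixon's criterion at 95%. Male WT replicate 2 gave 5 of them, male R replicate 3 and male WT replicate 1 gave 4 each, male R replicate 4 gave 3 and male R replicate 2 gave 2. Male R replicates 1 and 5 and male WT replicates 3 and 4 gave 1 each. Genes were examined as CPM without a log, many were picked for small p, and genes of a list are not independent. The share flagged is thus set against no chance rate. No explanation was tested.

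In male R, replicate 4 had 99.1 CPM of Aqp3, against 114 to 120 in the others, 838 CPM of the chaperone gene Dnaja1, against 540 to 606, and a proximal tubule list level of -0.21, against -0.06 to -0.01. Replicate 3 of male R had 17.1 CPM of Smpd4, against 19.7 to 20.7, 30.6 CPM of Ier2, against 15.3 to 17.9, 5.14 CPM of Havcr1, against 1.99 to 2.65, and 2.65 CPM of Trib3, a regulator in the unfolded protein response, against 0.753 to 1.18. Replicate 2 of male R had 8.53 CPM of Samd4, against 2.75 to 4.41, and 2.69 CPM of Egr2, against 0.365 to 0.866, and replicate 1 had 29.1 CPM of Junb, against 55.7 to 60.5. Replicate 5 of male R had 43.6 CPM of Agpat2, against 35.8 to 37.1.

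In male WT, replicate 2 had 93.6 CPM of Aqp6, against 46.2 to 59.5 in the others, 6.43 CPM of Elf5, against 2.47 to 3.34, and 4.25 CPM of Lcn2, against 1.41 to 1.96. The same library had 82.0 CPM of Fabp4, a fatty acid binding protein of fat cells, against 38.0 to 47.2, and 7.20 CPM of Plin1, against 0.764 to 2.56. Replicate 1 of male WT had 50.9 CPM of Zfp36, against 29.7 to 31.7, 1600 CPM of Lrp2, against 1310 to 1350, 34.8 CPM of Egr1, against 8.44 to 13.3, and 99.8 CPM of Jun, against 38.4 to 48.3. Replicate 3 of male WT had 515 CPM of Slc5a2, against 604 to 633, and replicate 4 had 75.0 CPM of Hdac5, against 88.2 to 93.2.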

How the results depend on the processing

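No gene passed an adjusted p under 0.05 in male R against male WT under any of 17 alternatives, in female R against female WT under any of 14, or in the interaction with sex under any of 24. The count at an unadjusted p under 0.05 moved more. For male R against male WT it was 1111 with limma voom and quality weights, 1562 with no filter on low counts, 829 without male Q replicate 4 and female Q replicate 5, and 337 to 577 with 1 library left out, the highest without male R replicate 2. In females it was 1030 with voom, 1103 with no filter, 543 without those Q libraries and 270 to 364 with 1 library left out. For the interaction it was 1742 with voom, 1629 with no filter, 1151 without those Q libraries and 356 to 710 with 1 library left out. A no-filter fit tests more genes, and the cause of the other shifts was not tested.

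The labels number replicates alike in both groups but give no pairing. Same-numbered male libraries correlated between -0.006 and 0.088 in their deviations from the group means, other pairs between -0.135 and 0.077, and 4 of 10 libraries correlated best with their own number. With a replicate block 565 genes had an unadjusted p under 0.05 in males, and 842 in the interaction with a replicate block within sex.

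Of 1649 values for 97 named genes, 1632 kept their direction. This count follows in part from how the genes were picked, so it does not show that the estimates are stable. Those of smallest p over all genes were named only if their direction held in each fit without 1 library. Others were picked for the smallest p in their lists. The 17 values that did not keep their direction came from leaving out 1 library, where estimates near 0 changed sign. They belong to Aqp11 (-0.01 to 0.09 over these fits), Aqp1 (-0.06 to 0.01), Aqp2 (-0.13 to 0.10), Aqp4 (-0.30 to 0.20), Car2 (-0.04 to 0.06), Star (-0.15 to 0.05), Umod (-0.06 to 0.04) and Trib3 (-0.01 to 0.56). Of 578 list medians 577 moved by less than the SD of the list level between libraries. That limit is wide for fits that share most of their libraries, so the count does not show that the medians are stable. The medians of 17 of 34 lists, each at most 0.20 in size, took either sign as single libraries were left out. Genes under 1 CPM were the least bounded, and 16.6% of their intervals stayed within 2-fold in the main fit. Intervals under the alternatives were not compared.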

Other observations

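A gene without a symbol (ENSMUSG00000119584), among the 20 with the most counts and chosen after its values were seen, was 4900, 13400, 14600, 4810 and 5190 CPM in male R and 4530, 7200, 5420, 4990 and 3510 CPM in male WT. Its log2 fold change was 0.74, and male R replicates 2 and 3 lay well above the other 8 libraries.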
